A study of Mus musculus with 8 samples.

Results

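Accessible sites at promoters of long noncoding RNA (lncRNA) genes were examined in mouse pachytene spermatocytes. A peak belonged to this set when its midpoint lay between 1000 bp upstream and 100 bp downstream of an annotated start of an lncRNA gene on one of the 19 autosomes, and more than 2000 bp from every start of a protein-coding gene. The lncRNA genes were those of the GENCODE types lincRNA, antisense, bidirectional promoter lncRNA and processed transcript. Position alone chose the peaks, and no measured height or overlap was used. The set held 363 of the 19309 peaks listed for *Arid1a* WT and 578 of the 30244 peaks listed for *Arid1a* cKO.

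ATAC-seq, in which a transposase inserts adapters into open DNA, was carried out on 4 libraries of each genotype with 100000 cells per library. All animals carried a floxed *Arid1a* allele on a CD1 background. *Arid1a* cKO males were fl/fl with 1 copy of a *Stra8-Cre* transgene, which is active from spermatogonia onwards, and *Arid1a* WT males were fl/fl or fl/+ without Cre, so the control was a floxed and not an unmodified mouse. Cells were pooled from the testes of several adult males and enriched by sedimentation, and the study described incomplete deletion, so the cKO libraries also held cells that kept ARID1A. *Arid1a* encodes a subunit of the BAF (SWI/SNF) remodeling complex.

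Each genotype was given as 1 peak list, so the values below have no spread between replicates and no p-value is given. Wilson and order-statistic intervals, all at 95%, cover counting error only, and neighbouring peaks are not independent. The depth of the libraries was not in the lists. Only the background of the library that supplied the peak names could be read, at 4.33 fragments per base in WT and 5.11 in cKO. Of 20 pachytene marker genes, 14 had a promoter peak in WT and 15 in cKO, although *Sycp3*, *Ldhc* and *Ybx2* had one in neither list. Spermatogonial markers had a promoter peak at 1 of 10 genes in WT and 3 of 10 in cKO, Sertoli markers at 2 and 3 of 8, Leydig markers at 2 and 2 of 7, and peritubular, endothelial and immune markers at 0 of 8 in both. What part these cells had in the values below was not tested.

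lncRNA genes are transcribed by RNA polymerase II from promoters much like those of protein-coding genes, and their transcripts are capped and often spliced but carry no long reading frame. Many are made at low levels and in few tissues, and the testis is known for making an unusually large variety of them, above all in meiotic and postmeiotic germ cells. Some have names and roles, such as hosts of small nucleolar RNAs and microRNAs or scaffolds of nuclear bodies, while most are known only as gene models.

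The promoters of the strongest peaks show the range of sequence in the set. Those below were read from the RefSeq mouse assembly GRCm38.p6, the build of mm10, from 150 bp before to 50 bp after the nearest start, 5′ to 3′ on the strand of the lncRNA, with each CG dinucleotide in capitals. The first 3 belong to the strongest WT peaks that also had a cKO peak and lie at chr5:25529863-25530062 (plus strand), chr8:4678312-4678511 (plus) and chr6:128200574-128200773 (minus). They hold 26, 22 and 17 CG dinucleotides.
*1700096K18Rik*: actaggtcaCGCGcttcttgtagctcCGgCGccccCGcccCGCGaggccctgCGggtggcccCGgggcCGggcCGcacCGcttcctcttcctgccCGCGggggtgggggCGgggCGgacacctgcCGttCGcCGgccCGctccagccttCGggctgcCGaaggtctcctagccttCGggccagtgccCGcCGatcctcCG
*Gm6410*: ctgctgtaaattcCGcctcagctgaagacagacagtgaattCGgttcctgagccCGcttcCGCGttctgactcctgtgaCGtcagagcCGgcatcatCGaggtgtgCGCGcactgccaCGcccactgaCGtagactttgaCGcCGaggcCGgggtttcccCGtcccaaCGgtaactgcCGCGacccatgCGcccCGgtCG
*Gm10010*: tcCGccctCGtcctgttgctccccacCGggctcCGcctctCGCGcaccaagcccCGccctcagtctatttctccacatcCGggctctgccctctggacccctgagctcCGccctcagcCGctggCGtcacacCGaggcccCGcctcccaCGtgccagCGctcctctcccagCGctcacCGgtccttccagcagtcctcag
The next 3 belong to the strongest peaks of unique sequence that were present in cKO alone and lie at chr10:95731077-95731276 (plus), chr16:77670205-77670404 (plus) and chr13:31582456-31582655 (minus). They hold 6, 4 and 4.
*Gm47708*: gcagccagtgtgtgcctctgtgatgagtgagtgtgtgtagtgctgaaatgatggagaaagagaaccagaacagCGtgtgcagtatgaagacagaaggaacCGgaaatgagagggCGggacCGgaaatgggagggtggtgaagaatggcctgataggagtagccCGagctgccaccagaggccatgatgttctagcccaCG
*Mir99ahg*: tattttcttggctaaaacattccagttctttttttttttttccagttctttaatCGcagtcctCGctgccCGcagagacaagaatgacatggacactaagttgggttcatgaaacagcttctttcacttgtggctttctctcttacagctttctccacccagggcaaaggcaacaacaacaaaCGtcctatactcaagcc
*1700018A04Rik*: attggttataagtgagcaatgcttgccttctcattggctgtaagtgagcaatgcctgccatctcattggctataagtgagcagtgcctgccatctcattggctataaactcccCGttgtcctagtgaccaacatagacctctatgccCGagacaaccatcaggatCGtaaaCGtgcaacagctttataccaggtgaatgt
The last belongs to the strongest peak present in WT alone, at chr9:122903097-122903296 (minus), and holds 7.
*A530083I20Rik*: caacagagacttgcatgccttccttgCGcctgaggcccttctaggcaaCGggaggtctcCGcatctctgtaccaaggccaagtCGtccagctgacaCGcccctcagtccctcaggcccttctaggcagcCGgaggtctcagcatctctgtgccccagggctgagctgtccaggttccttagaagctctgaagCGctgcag
The *1700018A04Rik* promoter holds the letters CCAAT, the core bound by NFY, 4 times, both strands counted, and the other 6 stretches hold none. The *Gm6410* promoter holds 1 full cyclic-AMP response element, TGACGTCA, the site known for CREB and the germ cell factor CREM.

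How lncRNA promoters differed between the genotypes was asked first by overlap of the lists. WT peaks with an overlap of 1 bp or more in the cKO list were called common and the remaining WT peaks lost, and cKO peaks without any overlap in the WT list were called gained. Of the 363 WT peaks at lncRNA promoters, 352 were common and 11 were lost, a share of 3.03% (1.70 to 5.34) beside 4.72% of all autosomal WT peaks. Of the 578 cKO peaks, 324 were common and 254 were gained, a share of 43.9% (39.95 to 48.0) beside 43.0% of all autosomal cKO peaks. The lists thus differed at lncRNA promoters mostly by peaks that the cKO list added, at a gained share equal to the background within counting error.

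The gained share at lncRNA promoters lay between those of the kinds of peak that make up most of the background. At protein-coding promoters, 16.3% of cKO peaks were gained (15.5 to 17.1; 1463 of 8978), and lncRNA promoters lay 27.6 percentage points higher (Newcombe interval, 23.6 to 31.8). Among the 14517 other peaks more than 2000 bp from a protein-coding start, 61.5% were gained (60.7 to 62.2), and lncRNA promoters lay 17.5 points lower (13.4 to 21.6). The lost share of WT peaks at lncRNA promoters likewise lay between 1.02% at protein-coding promoters and 9.56% at the other distal peaks.

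Gained peaks at lncRNA promoters were centred on the starts. The number of midpoints in 250-bp bins around the nearest lncRNA start was highest just downstream of the start for gained peaks, with 120 peaks, as it was for common cKO peaks with 145. In the 1000 bp upstream of starts there were 190 gained peaks, or 47.5 per bin, against 12.2 per bin at 2000 to 5000 bp on either side. The ratio was 3.89 for gained peaks, 8.17 for common cKO peaks, 7.51 for common WT peaks and 2.31 for the few lost peaks. This count was made over all peaks more than 2000 bp from a protein-coding start, so the window that defined the set does not fix it.

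**Figure D1:**
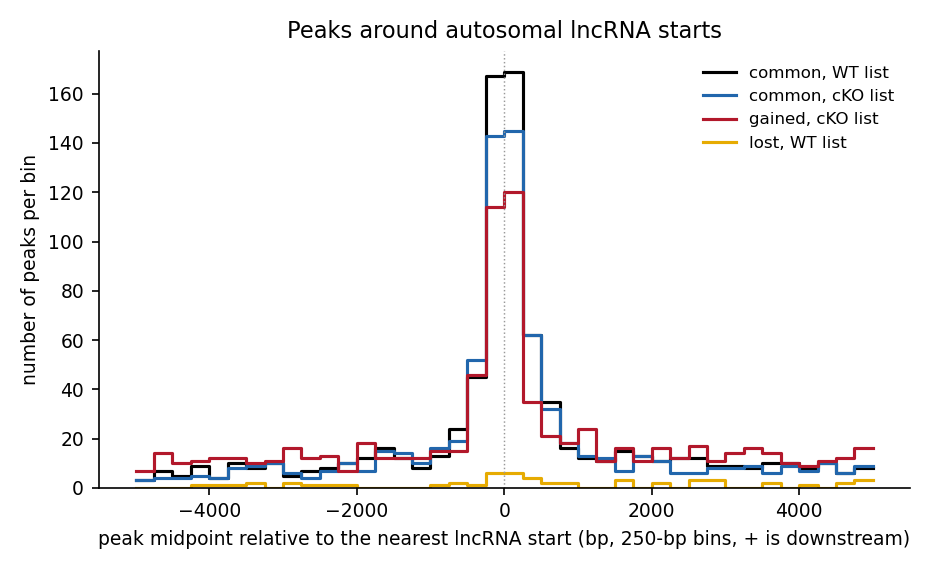
Number of peak midpoints per 250-bp bin (y axis) against the distance to the nearest autosomal lncRNA start in bp (x axis, downstream positive), for peaks more than 2000 bp from protein-coding starts. Common and gained peaks pile up at the start, with 145 and 120 cKO peaks in the first bin downstream, while lost peaks reach at most 6 per bin.

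Gained peaks were smaller than common ones, as they were over all autosomal cKO peaks. Median fold enrichment, which divides the number of fragments over the summit, plus 1, by the background, plus 1, was 3.76 for gained (3.60 to 3.93; n = 254) and 7.28 for common cKO peaks (6.87 to 8.02; n = 324). Median width was 538 bp (501 to 602) against 1281.5 bp (1187 to 1404). Over all autosomal cKO peaks the medians were 3.44-fold and 505 bp for gained and 8.84-fold and 1385 bp for common peaks. Widths are those of the deposited overlaps between replicates, collapsed by name, and went down to 9 bp at gained peaks of the set. A gained peak covered the lncRNA start itself in 70.5% of cases (64.6 to 75.7), and a common cKO peak in 94.1% (91.0 to 96.2). Of the gained peaks, 67.3% lay on 3 or more deposited rows, each row being an overlap with a peak of another replicate, against 97.5% of common cKO peaks. For gained peaks at protein-coding promoters this share was 66.4%, and for other gained distal peaks 55.2%. The gained peaks lay a median of 33017 bp from the nearest WT peak (25482 to 49327), and 6 of 254 lay within 1000 bp of one.

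Because gained peaks were weak, the gained share was compared within 5 parts of the autosomal cKO list by −log10 q, from part 1, the weakest, to part 5. Nearly all lncRNA promoter peaks of part 1 were gained (89.7%, 80.2 to 94.9; 61 of 68), as were 91.1% of peaks at protein-coding promoters. In part 3 the share was 47.1% (39.7 to 54.5; 80 of 170) at lncRNA promoters, 36.2% (33.5 to 39.0) at protein-coding promoters and 47.3% (45.7 to 48.8) at other distal peaks. In part 4 it was 14.2% (9.37 to 20.9; 20 of 141), 3.47% (2.82 to 4.28) and 16.1% (14.6 to 17.7). Within parts 3 and 4, lncRNA promoters thus lay above protein-coding promoters and within their counting error of other distal peaks. Part 3 ran from a −log10 q of 7.38 to 17.5 and part 4 from 17.5 to 55.5. Strength was not matched further inside a part, and what it had to do with the remaining difference was not tested. In part 5, 0 of 83 lncRNA promoter peaks were gained, which allows a share of up to 4.42%.

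**Figure D2:**
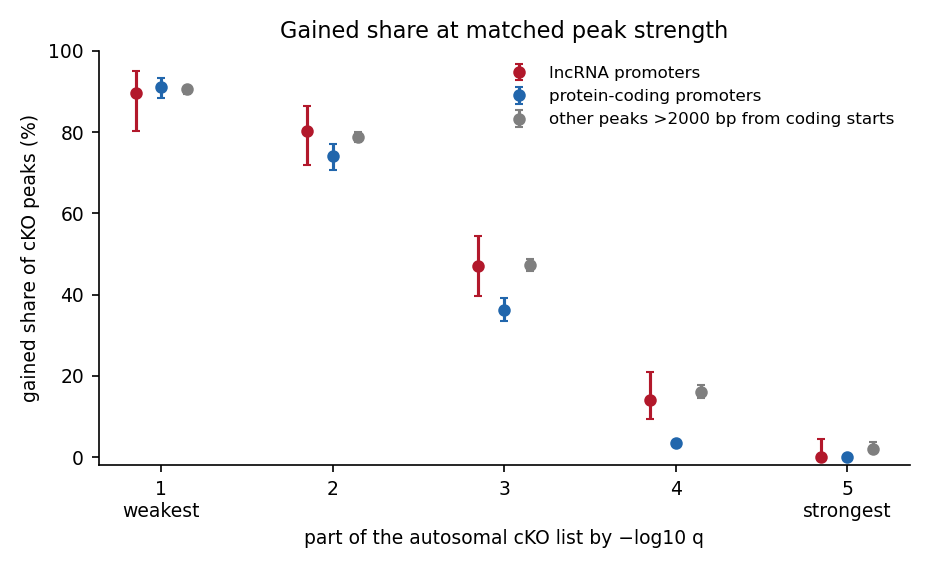
Gained share of cKO peaks in percent (y axis) in each of 5 parts of the autosomal cKO list by −log10 q (x axis, weakest to strongest), for lncRNA promoters, protein-coding promoters and other peaks more than 2000 bp from protein-coding starts. Points are shares and bars are 95% Wilson intervals. In part 4 lncRNA promoters stand at 14.2%, beside 3.47% at protein-coding promoters and 16.1% at other distal peaks.

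The unequal length of the lists bore on these shares. When the weakest cKO peaks were dropped until both lists were equally long, 404 cKO peaks remained at lncRNA promoters, of which 106 were gained (26.2%), and 40 of the 363 WT peaks were lost (11.02%). At protein-coding promoters 6.79% of cKO peaks were gained under this setting, and over all autosomal peaks 19.3%. The lost share of all autosomal WT peaks ranged from 0.257% to 13.0% over the 17 alternatives. Its value under this setting is not given here, so the 11.02% has no matched background. Against the full WT list, cKO peaks reaching a −log10 q of 10 left 59 gained at lncRNA promoters (18.04%), with 3.77% at protein-coding promoters and 11.2% over all autosomal peaks. The gained share at lncRNA promoters, close to the background in the full lists, thus stood above that of all autosomal peaks in these settings. It stayed below that of other distal peaks here, as in all 17 alternatives. The lowest gained share of other distal peaks over those alternatives was 25.1%.

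Gained peaks lay at lncRNA starts of lower CpG content than common ones did. The ratio of observed to expected CG dinucleotides, from 250 bp before to 50 bp after the start, had a median of 0.479 at common cKO peaks (0.419 to 0.528) and 0.324 at gained peaks (0.290 to 0.370). The gained share was 25% (18.9 to 32.2; 40 of 160) where the ratio was 0.6 or more, 45.1% (36.5 to 53.9; 55 of 122) between 0.4 and 0.6, and 53.7% (48.0 to 59.3; 159 of 296) below 0.4. The intervals of the highest and the lowest class did not overlap. The GC content of the whole peak had a median of 52.2% at common and 50.5% at gained cKO peaks of the set. Over all autosomal cKO peaks it was 55.7% and 51.8%, and at protein-coding promoters 57.4% and 58.0%. The CpG ratio was not computed for those other peaks, and the part of peak strength was not tested. Of the 11 lost peaks, 8 lay in the lowest class and 1 in the highest.

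Counted by gene, 9065 autosomal lncRNA genes were annotated, and 6982 had a start more than 2000 bp from protein-coding starts. A promoter peak was present at 374 of these in WT (5.36%, 4.85 to 5.91) and at 591 in cKO (8.46%, 7.83 to 9.14), and 6 further genes had a peak in the window of a start nearer to a coding one. Protein-coding genes with a promoter peak went from 40.6% to 44.0% of 20807. For CpG content, each gene was classed by its outermost start more than 2000 bp from protein-coding starts. That start need not be the one with the peak. lncRNA genes with CpG-rich starts had a promoter peak most often, at 27.8% in WT (23.9 to 32.0) and 34.1% in cKO (29.9 to 38.5) of 461 genes. Those with CpG-poor starts had one least often, at 2.99% (2.58 to 3.47) and 5.47% (4.91 to 6.10) of 5610 genes. A peak in the cKO list only was likewise most frequent at CpG-rich starts, at 10.4% of genes (7.94 to 13.5), and least at CpG-poor ones, at 3.32% (2.88 to 3.82). Because CpG-poor starts are so many, they still made up 186 of the 302 genes of this kind.

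**Figure D3:**
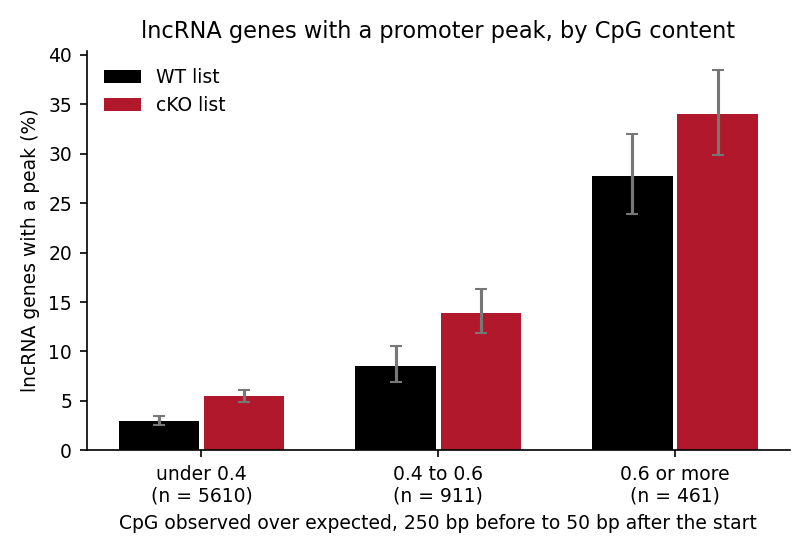
Share of lncRNA genes with a promoter peak in percent (y axis, bars from 0) by the CpG ratio of the sequence around the start (x axis), for the WT and the cKO list, with 95% Wilson intervals. The start is the outermost one of the gene more than 2000 bp from protein-coding starts. In the CpG-poor class the share is 2.99% in WT and 5.47% in cKO, and in the CpG-rich class 27.8% and 34.1%.

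Membership in the set moved for many genes without a change in overlap. Peaks were present at 289 genes in both lists, at 88 in WT only and at 305 in cKO only. Of the 88 genes, 82 still had a cKO peak over the promoter window, although its midpoint lay outside the window or too near a coding start, and 6 had none. Of the 305 genes, 254 had no WT peak over the window. cKO peaks were wider, and 39 of the 352 common WT peaks lay in a cKO peak that spanned 2 or more WT peaks.

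The intervals of the classes of lncRNA gene overlapped. Gained peaks made up 46.5% (41.6 to 51.4; 185 of 398) of cKO peaks at lincRNA genes, which lie between protein-coding genes. At antisense genes, which overlap a protein-coding gene on the other strand, they made up 40.3% (32.1 to 49.1; 50 of 124), and at processed transcripts 33.9% (22.9 to 47.0; 19 of 56). No member lay at a bidirectional promoter lncRNA. The gained share was 38.2% (26.5 to 51.4) at 2 to 5 kb from the nearest protein-coding start and 53.4% (44.4 to 62.1) beyond 100 kb, with intervals that overlap. A promoter peak inside a protein-coding gene was gained in 45.7% of cases (36.5 to 55.2), and one outside in 43.6% (39.2 to 48.1). By chromosome, the gained share ranged from 25% on chromosome 15 (5 of 20 peaks) to 62.5% on chromosome 14 (15 of 24).

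Few strong WT peaks were lost, at lncRNA promoters or elsewhere. The autosomal WT list was also split into 5 parts by −log10 q. In the strongest part, 1 of 57 lncRNA promoter peaks was lost, beside 3 of 3800 autosomal peaks. The strongest common WT peaks at lncRNA promoters overlapped a cKO peak by selection, and all stood above the highest lost peak, at 12.4-fold. They belonged to *1700096K18Rik* (22.3-fold in WT and 27.8-fold in cKO), *Gm6410* (21.01 and 34.4), *Gm10010* (19.5 and 29.5), *1700012D14Rik* (18.2 and 28.96), *Malat1* (17.8 and 24.4), *1700029M20Rik* (17.3 and 24.5), an entry of the processed transcript type under the symbol *Zswim6* (16.7 and 28.8), and *Gm34590* (16.7 and 23.6). Of these, *Malat1*, the abundant RNA of nuclear speckles, is the only named lncRNA of known role. The peaks were 1236 to 2625 bp wide in WT and consisted of unique sequence. Their CpG ratios ranged from 0.502 at *1700029M20Rik* to 1.02 at *Zswim6*.

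Promoters of snoRNA host genes, which carry small nucleolar RNAs in their introns, were the most open of the named lists. Of 10 host genes with a start that could be scored, 7 had a WT peak (70%), beside 5.36% of all lncRNA genes. The overlapping cKO peak was higher at each of them, as it was in 91.3% of all autosomal pairs of 1 WT and 1 cKO peak. The folds in WT and cKO were 15.6 and 17.3 at *Snhg8*, 12.4 and 17.5 at *Snhg6*, 12.01 and 20.1 at *Snhg5*, and 10.5 and 13.9 at *Snhg15*. At *Snhg20* they were 6.75 and 10.3, at *Snhg12* 5.63 and 6.55, and at *Snhg17* 5.44 and 8.51. None of these snoRNA host peaks was gained or lost, beside 43.9% of cKO peaks gained and 3.03% of WT peaks lost over all lncRNA promoters. Their cKO peaks were strong, with a −log10 q of 19.2 to 117, which lies in parts 4 and 5. In those parts 14.2% and 0% of cKO peaks at lncRNA promoters were gained, so their strength was not matched by the 43.9%. The midpoints of the wider cKO peaks at *Snhg5* and *Snhg17* fell outside the window. A start of a small RNA within 1000 bp was found at 22 of 324 common cKO peaks at lncRNA promoters (6.79%, 4.53 to 10.1) and at 3 of 254 gained ones (1.18%, 0.40 to 3.41).

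Well studied lncRNAs gave common peaks in the same way. Of 19 such genes with a start that could be scored, 7 had a peak in both lists (36.8%), beside 4.14% of all lncRNA genes. *1810026B05Rik*, also known as *Chaserr* and next to *Chd2*, had folds of 15.2 in WT and 27.2 in cKO. *Dleu2*, a microRNA host, had 13.1 and 19.1. *Lncpint*, known as a p53-induced transcript, had 10.1 and 25.04. *Neat1*, the scaffold of paraspeckles, had a WT peak of 2823 bp at 7.69-fold, and 1 cKO peak of 10432 bp at 14.7-fold spanned 4 WT peaks there and also counted for *Frmd8os*. The peaks at *Miat* (4.69 and 4.91) and *Pvt1* (4.13 and 4.25), the neighbour of *Myc*, were close to equal in fold. *Lncpint* had in addition a second, gained peak of 2.95-fold at another of its starts.

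MicroRNA hosts had a member peak at 3 of 9 genes in WT (33.3%) and 4 of 9 in cKO (44.4%), beside 5.36% and 8.46% of all lncRNA genes, and imprinted genes at 1 of 8 in both. Of the microRNA hosts, *Mir142hg* (5.44 and 8.67) and *Mir9-3hg* (7.13 and 13.1 at the stronger of its peaks) had a member peak in both lists. *Mir155hg* (3.19 and 6.22) and *Mir670hg* (4.31 and 6.38) had a common peak whose midpoint lay in the window in 1 list only. *Mir99ahg*, the host of the miR-99a and let-7c cluster, had a gained peak of 7.85-fold, on 3 rows and at a −log10 q of 26.6. Among the imprinted lncRNA genes, *Nespas*, the antisense transcript of the *Gnas* locus, alone had a peak, at 11.1-fold in WT and 19.96-fold in cKO.

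**Figure D4:**
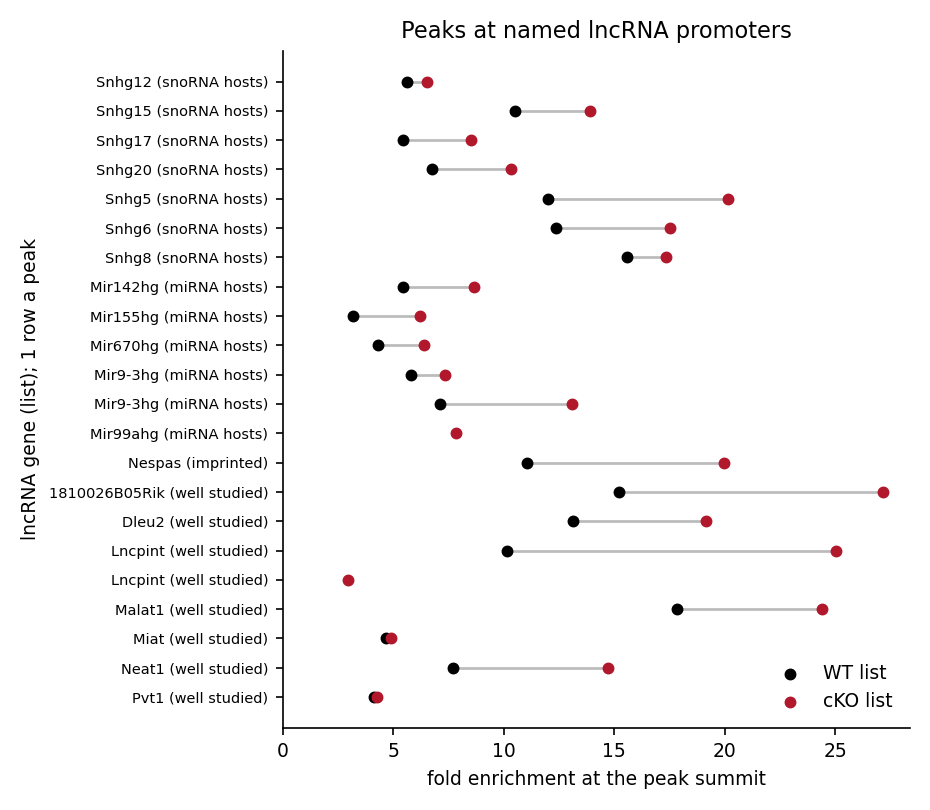
Fold enrichment at the summit (x axis) of peaks at promoters of named lncRNA genes (y axis, 1 row a peak), with the WT list in black and the overlapping cKO peak in red. A red point alone is a gained peak, as at *Mir99ahg* and the second peak of *Lncpint*, and *Lncpint* has the widest gap between a black and a red point relative to its WT fold, 10.1 and 25.04.

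Genes named for lying opposite a protein-coding gene were scored at 158 promoters, with member peaks at 8 in WT (5.06%) and 13 in cKO (8.23%). These shares stood beside 5.36% and 8.46% of all lncRNA genes. By midpoint, 4 genes were members in both lists, 4 in WT only and 9 in cKO only. Those in WT only (*Arhgap33os*, *Kcnmb4os1*, *Kdm6bos* and *Mypopos*) had common peaks. So did *Frmd8os*, *Grip1os2*, *Rptoros* and *Tvp23bos* among those in cKO only. The common peaks at *Rab10os* (11.1 and 17.7) and *Arhgap33os* (8.44 and 13.4) were the highest of them in WT. Gained peaks lay at *Slmapos2* (4.09), *Lrrc75aos2* (3.93), *Pramef12os* (3.60), *Pip5k1bos* (3.27) and *Tlx1os*, which had a pair at 2.95. Anonymous genes made up most of the set. Gene models of the *Gm* series had a promoter peak at 179 of 4745 genes in WT (3.77%) and 307 in cKO (6.47%). RIKEN clones had one at 137 of 1397 (9.81%) and 201 (14.4%).

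The strongest gained peaks on 3 or more rows lay at genes of mostly unknown role. *Gm47708* (chr10:95731020-95731627) had 8.18-fold enrichment at a −log10 q of 28.6, and *Mir99ahg* (chr16:77670109-77670620) followed. *1700018A04Rik* (chr13:31581966-31582864) had 7.69-fold, *Gm33111* (chr12:32080638-32081202) 7.36-fold, *D030068K23Rik* (chr8:109074960-109075485) 7.20-fold and *Gm16565* (chr1:165780406-165781385) 6.87-fold. *1700110I07Rik* also stood at 7.36-fold, but 20% of its 50-base stretches were unique in the genome. *Gm20756* and *Gm17768* stood at 6.71, and *4930586N03Rik*, *Gm15340* and *Gm35963* tied at 6.55. All of these were weaker than each of the 8 strongest common WT peaks. Of the 12, *4930586N03Rik* had a CpG ratio of 0.88, and the others lay between 0.13 and 0.50.

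Few peaks at lncRNA promoters were lost, and most of them were small. The exception in height was *A530083I20Rik* (chr9:122902753-122903537), at 12.4-fold and a −log10 q of 49.1, on 2 rows of unique sequence, with the nearest cKO peak 15133 bp away. *Gm15389* (6.94-fold, 40% unique) and *Gm39397* (4.50-fold, 0% unique) lay in repeated sequence. *Gm11651* (4.13), *Gm42884* (3.56), *Gm26800* (3.38, with a gained peak of 2.78-fold 186 bp away), *Gm48084* (3.38) and *B230206L02Rik* (3.38) followed. The median width of lost peaks was 288 bp (267 to 404; n = 11), 4 of 11 lay within 1000 bp of a cKO peak, and 3 of 11 lay on 3 or more rows.

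Height was compared peak by peak in 266 pairs, in which 1 WT and 1 cKO peak at lncRNA promoters overlapped each other and no other peak. The median log2 ratio of cKO to WT fold enrichment was 0.55 (0.51 to 0.60), and 251 of 266 pairs were above 0 (94.4%, beside 91.3% of all autosomal pairs). The same median was found over all autosomal pairs, and 135 of the 266 lay above it, so lncRNA promoters were spread evenly around the autosomal median. At protein-coding promoters the median was 0.64, and at other distal pairs 0.36. Relative to the autosomal median, *Lncpint* stood 0.75 higher on the log2 scale, *Gm13853* and *Gm16299* 0.68, *Gm46430* 0.61 and *4930432O09Rik* 0.59. The lowest pairs stood below it, *4933435F18Rik* at -1.01 (4.50-fold in WT and 3.27-fold in cKO), *D030045P18Rik* at -0.93, *4930500L23Rik* at -0.81, *1700120K04Rik* at -0.75 and *Gm40797* at -0.68. All of these lowest pairs were peaks of 18 to 24 fragments at the WT summit.

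**Figure D5:**
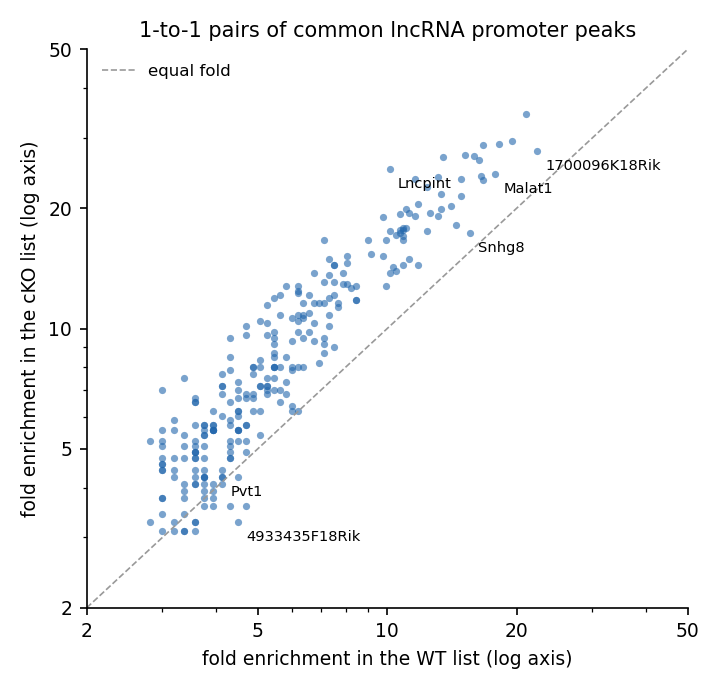
Fold enrichment in the WT list (x axis, log scale) and in the cKO list (y axis, log scale) for the 266 pairs of common peaks at lncRNA promoters, 1 point a pair. Most points, 251 of 266, lie above the dashed line of equal fold, and *Lncpint* lies farthest above it.

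The widest cKO peaks of the set reached far beyond a promoter. The peak at *Gm10505* spanned 51223 bp and covered 15 WT peaks, whose widths summed to 43025 bp. The peak at *Gm11766* spanned 12536 bp, beside 11130 bp of WT peaks, with a fold enrichment of 39.3, the highest of the set. *Neat1* (10432 bp, beside 4549 bp of WT peaks), *Gm31181* (9196 bp, beside 6892 bp) and *1700063H04Rik* (7835 bp, beside 6009 bp) followed. At each of these 5 genes the cKO peak was common, and the highest WT peak under it had a fold enrichment of 7.69 to 21.6. No lncRNA gene had more than 2 member peaks in either list. In both lists *Mir9-3hg* had 2.

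Motifs were counted on either strand from 250 bp before to 50 bp after the start. The longer MYB motif, CAACNGNC, the kind of site bound by MYBL1 (A-MYB), a factor that drives pachytene genes, was found at 20.4% of lncRNA starts with a common cKO peak (16.3 to 25.1; 66 of 324) and at 16.3% of starts with a gained peak (12.3 to 21.4; 41 of 251). At lncRNA genes without a peak it was found in 10.04% (9.32 to 10.8), at all 6982 genes in 10.8%, and at protein-coding genes with a cKO peak in 11.4% (10.8 to 12.1). In the split by CpG class, the outermost start was used for genes with and without a peak alike. Within CpG-poor starts the longer MYB motif was present at 20.2% (16.1 to 25.04) of genes with a cKO peak and 10.1% (9.35 to 10.99) of genes without a peak. The shares were 16.5% (11.1 to 23.96) and 10.1% (8.13 to 12.4) in the middle class and 14.01% (9.44 to 20.3) and 8.07% (5.44 to 11.8) at CpG-rich starts, with intervals that overlap in these classes. The shorter form CAACNG, which lies within it, was found at 45.1%, 42.2% and 38.0% of starts with a common peak, with a gained peak and without a peak.

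The RFX motif GTTGCCATG, which shares the letters GTTG with the reverse strand of the MYB motif, was rare but followed the same order, at 3.40% (1.91 to 5.98), 2.79% (1.36 to 5.64) and 0.94% (0.73 to 1.205), and at 0.82% of protein-coding genes with a peak. The SP motif and the core of the cyclic-AMP response element differed between common and gained starts by more than their intervals. Both, like the NRF1 motif below, hold a CG, and the median CpG ratio was 0.479 at common and 0.324 at gained cKO peaks. These motifs were not split by CpG class, so the part of CpG content in the differences was not tested. The SP motif GGGCGG was found at 38.9% of common (33.7 to 44.3), 13.9% of gained (10.2 to 18.8) and 7.55% of peak-free starts, and at 61.7% of protein-coding genes with a peak. The core TGACG stood at 31.2% (26.4 to 36.4), 16.7% (12.6 to 21.8) and 12.2%. The full element TGACGTCA, which holds it, stood at 5.25% (3.30 to 8.24), 1.59% (0.62 to 4.03) and 0.70%, and the NRF1 motif GCGCANGCG at 7.72% (5.28 to 11.1), 3.19% (1.62 to 6.16) and 0.41%, with intervals of common and gained starts that overlap. The NFY core CCAAT, at 37.3%, 39.8% and 36.3%, and the YY1 motif AANATGGC, at 7.10%, 4.38% and 4.85%, had overlapping intervals in the 3 groups. TATAAA was found at 9.57% of common and 12.4% of gained starts and at 16.7% of starts without a peak.

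Of the strongest promoters of unique sequence named above, 1 of 8 common and 1 of 11 gained held the longer MYB motif. They are shown as 30-base stretches with the match in capitals, at chr15:36938724-36938753 (plus) for *Gm34590* and chr6:25931367-25931396 (plus) for *Gm20756*. In both the match lies on the reverse strand, and in *Gm20756* its last letters begin an RFX match.
*Gm34590*: agggaggcccaGACTGTTGccaggcaggct
*Gm20756*: agcgagatgagGTCAGTTGccatgaggaaa

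The limit of 2000 bp from protein-coding starts left out 796 of 1159 WT peaks and 853 of 1431 cKO peaks that lay in an lncRNA promoter window. Just inside it were *Gm16172* (6.55-fold, common in cKO, 2005 bp), *Gm45441* (24.5-fold, common, 2033 bp), *Gm45051* (2.95-fold, gained, 2040 bp) and *5930403N24Rik* (4.50-fold, common in WT, 2044 bp). Just outside it lay *Gm26664* (8.51-fold, 1948 bp from *Ier2*) and *Gm17134* (4.88-fold, 1924 bp from *Plppr3*), both common.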

How the data were processed

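ATAC-seq was carried out by the authors on 4 *Arid1a* WT and 4 *Arid1a* cKO libraries with the Omni-ATAC protocol. Per the labels and the study's methods, reads were trimmed, aligned to mm10 with bowtie2 without a stated mapping quality filter, cleared of duplicates and mitochondrial reads, and peaks were called per library with MACS2 without a local background. Replicate peaks within each genotype were then intersected, which gave 1 deposited list per genotype. Fold enrichment was deposited as a linear ratio, and the deposited −log10 q scores it against a Poisson background. A stronger or deeper library yields more and wider peaks, and the lists do not give library depth.

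Rows (52419 in WT and 84006 in cKO) were collapsed by peak name, so widths and midpoints are those of the collapsed overlaps between replicates. Starts came from GENCODE vM21, whose assembly is the build of mm10, and sequence from RefSeq GRCm38.p6. A peak was of unique sequence when at least 50% of its 50-base stretches, sampled every 25 bp, occurred once in the genome. Shares have Wilson intervals, differences Newcombe intervals and medians order-statistic intervals. The overlap, membership and interval code was tested on simulated data. Python 3.11.15, numpy 2.4.6 and pandas 2.3.3 were used. The text names the 8 strongest common WT peaks by fold, the strongest gained peaks by −log10 q on 3 or more rows (10 and ties), the 8 strongest lost peaks, the 5 widest cKO peaks, genes of the listed families with a peak, the 5 highest and 5 lowest pairs, the peaks at the distance limit and the genes with most peaks. The gene set, lists and motifs were chosen with earlier results of these data known. Alternatives were other windows, start definitions, distances, strength limits, overlaps and gene types.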

Additional observations from a re-analysis of the deposited data

How the results depend on the processing

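Each genotype had 1 list, so no replicate could be left out. No paired analysis was possible because the lists carry no replicate numbers. Over the 17 alternatives the gained share at lncRNA promoters was above that at protein-coding promoters in every case, and ranged from 18.04% to 60.4%. The number of gained peaks ranged from 59 to 680 and of lost peaks from 2 to 40. The shares over all autosomal peaks moved alike, from 11.2% to 57.4% gained in cKO and from 0.257% to 13.0% lost in WT. Windows of 1000 bp on either side gave 558 WT and 876 cKO peaks at 574 and 904 genes, with 387 gained and 24 lost. Counting a peak by any base in the window gave 915 cKO peaks at 957 genes and a gained share of 39.1%. Rows as deposited gave 966 and 1642 entries, 680 gained and 25 lost. One start per gene gave 7 lost peaks. With a limit of 10 on −log10 q in both lists there were 183 WT and 327 cKO peaks at 189 and 344 genes, median folds of 7.32 and 7.36, 163 gained (49.8%) and 3 lost (1.64%), and against the full other list 59 gained (18.04%) and 2 lost (1.09%). At 5 in both lists, median folds were 5.82 and 5.89 with 6 lost, and against the full other list 153 were gained (33.1%) and 4 lost (1.39%). Peaks on 3 or more rows gave a gained share of 35.1%, 3 lost (1.16%) and median folds of 6.19 and 5.73. Equal list lengths gave 106 gained (26.2%), 40 lost (11.02%) and a cKO median fold of 6.55. Requiring 50% of a peak to be covered gave a gained share of 60.4% and 18 lost. The gained share also stayed below that of other distal peaks in all 17, but lay above that of all autosomal peaks in 16, the exception being peaks counted by any base (39.1% and 43.0%). The lost share was above that of other distal peaks at a limit of 10 against the full other list (1.09% and 1.01%). The median fold, 5.07 in both lists, was lower in cKO than in WT on 3 or more rows and with rows as deposited. Strength parts, CpG classes, gene lists, motifs and pairs were not recomputed. The cause of these shifts was not tested. The lists compare the libraries that supplied the peak names, and accessibility below 13 fragments at the summit in WT and 14 in cKO, the lowest listed, is not in them.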

Other observations

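By the same rule on the sex chromosomes, 11 WT peaks on X and 1 on Y lay at lncRNA promoters, and all were common. Over all WT peaks, 4.69% were lost on X and 6.65% on Y. So few peaks allow a lost share of up to 25.9% on X. In the cKO list there were 24 on X, of which 14 were gained (58.3%, 38.8 to 75.5, beside 52.8% of all cKO peaks on X). On Y there were 2, of which 1 was gained, beside 46.9% of all cKO peaks on Y. *Ftx*, a gene of the X-inactivation centre, had a common peak (4.13-fold in WT and 5.07-fold in cKO) and a gained peak of 5.24-fold, and *Jpx*, its neighbour there, had a gained peak of 3.76-fold, all of unique sequence. *Gm15138* stood at 8.63-fold in WT and 18.5-fold in cKO. Of the 14 gained peaks on X, 9 had fewer than 50% unique stretches, among them *Gm15020* (6.05-fold, 0% unique) and the 5 peaks of the *Astx* family, none with a unique 50-base stretch, so reads of its copies cannot be told apart.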
